A study of Mus musculus with 7 samples.

Results

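Myelin genes of Schwann cells were followed through skin of Tuft1 knockout and wild-type mice; Tuft1 is the gene of a desmosome-associated protein. The 8 genes, taken by name from the table, were Mbp, Pmp22, Prx, Cnp, Mag, S100b, Ncmap and Pllp, out of 56691 genes in the table. Skin of healthy appearance came from 3 knockout mice (mice 2, 3 and 4), and the control was skin of 4 wild-type mice (mice 5, 6, 7 and 8), with 1 library per mouse. The Tuft1 allele, strain, age and body site are not given in the sources used here. RNA of powdered frozen tissue was read near the 3' ends of polyadenylated transcripts with the QuantSeq kit, so a transcript's count does not grow with its length. Levels below are in CPM, counts scaled to a common library size, with sizes adjusted by TMM, a method that sets libraries level on the bulk of their genes.

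Schwann cells are the glia of peripheral nerve. Some wrap 1 axon each in myelin, a stack of membrane held together by proteins such as Mbp and Pmp22, and others hold bundles of thin axons without myelin. The transcription factors Sox10 and Egr2 switch on myelin genes, and skin carries both kinds of Schwann cell along its sensory nerves and around hair follicles.

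Libraries held 7009237 to 9256459 counts, and 12302 to 14379 genes had counts in each. A count of 0 in 1 library allows a level of up to 0.323 to 0.395 CPM, taking 3 counts as the limit, for counting error only. Zeros were frequent: of 13856 genes with at least 70 counts in some library, 40.5% had 0 in another. Tuft1, the check of the labels, was lower but present in the knockout mice, at 17.2 to 29.1 CPM against 55.6 to 114 CPM in the controls. Whether these 3' tags come from the altered part of the gene cannot be said without the allele. The groups did not overlap (log2 fold change -2.10). Tuft1 was not called by edgeR's quasi-likelihood test (adjusted p = 0.172), but was called by the DESeq2 Wald test (adjusted p = 1.32e-05) and by edgeR without a filter on low counts (adjusted p = 0.000924). Its other alternatives gave adjusted p = 0.128 to 0.650.

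Markers of myelinating Schwann cells had counts in every library. Among them, Mbp, Pmp22, Egr2 and Sox10 are made by other cells as well, so their counts do not show Schwann cells alone. Prx and Mag were at 0 in some mice, while Ncmap had counts in all. Of 11 markers of myelinating Schwann cells, 5 of them among the 8 genes, 9 had counts and 6 had counts in all 7 libraries, with summed levels of 236 to 498 CPM in knockout and 275 to 424 CPM in wild-type skin. Pmp2, a lipid carrier of myelin, and Gjb1, the connexin of Schwann cells, had 0 counts in all 7. Of 7 markers of oligodendrocytes, the cells of central myelin, 7 had 0 counts in all libraries.

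The myelin genes did not separate knockout from wild-type skin. Of the 8 genes, 7 had enough counts to be tested, and Mag did not. By edgeR's quasi-likelihood test 0 of the 7 were called, where 0.0233% of all 12888 genes tested were called (3 genes). At an unadjusted p under 0.05 there were also 0 of 7, against 4.31% of all genes, and DESeq2 and limma-voom called 0 as well. No tested member was free of overlap between the groups, against 6.89% of all genes. Of the 7, 3 had a log2 fold change (knockout over wild type) above 0 and 4 below, with a median of -0.04, beside -0.01 over all genes tested. In bulk skin, a difference in the number of Schwann cells, in either direction, cannot be told from one in RNA per cell.

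**Figure D1:**
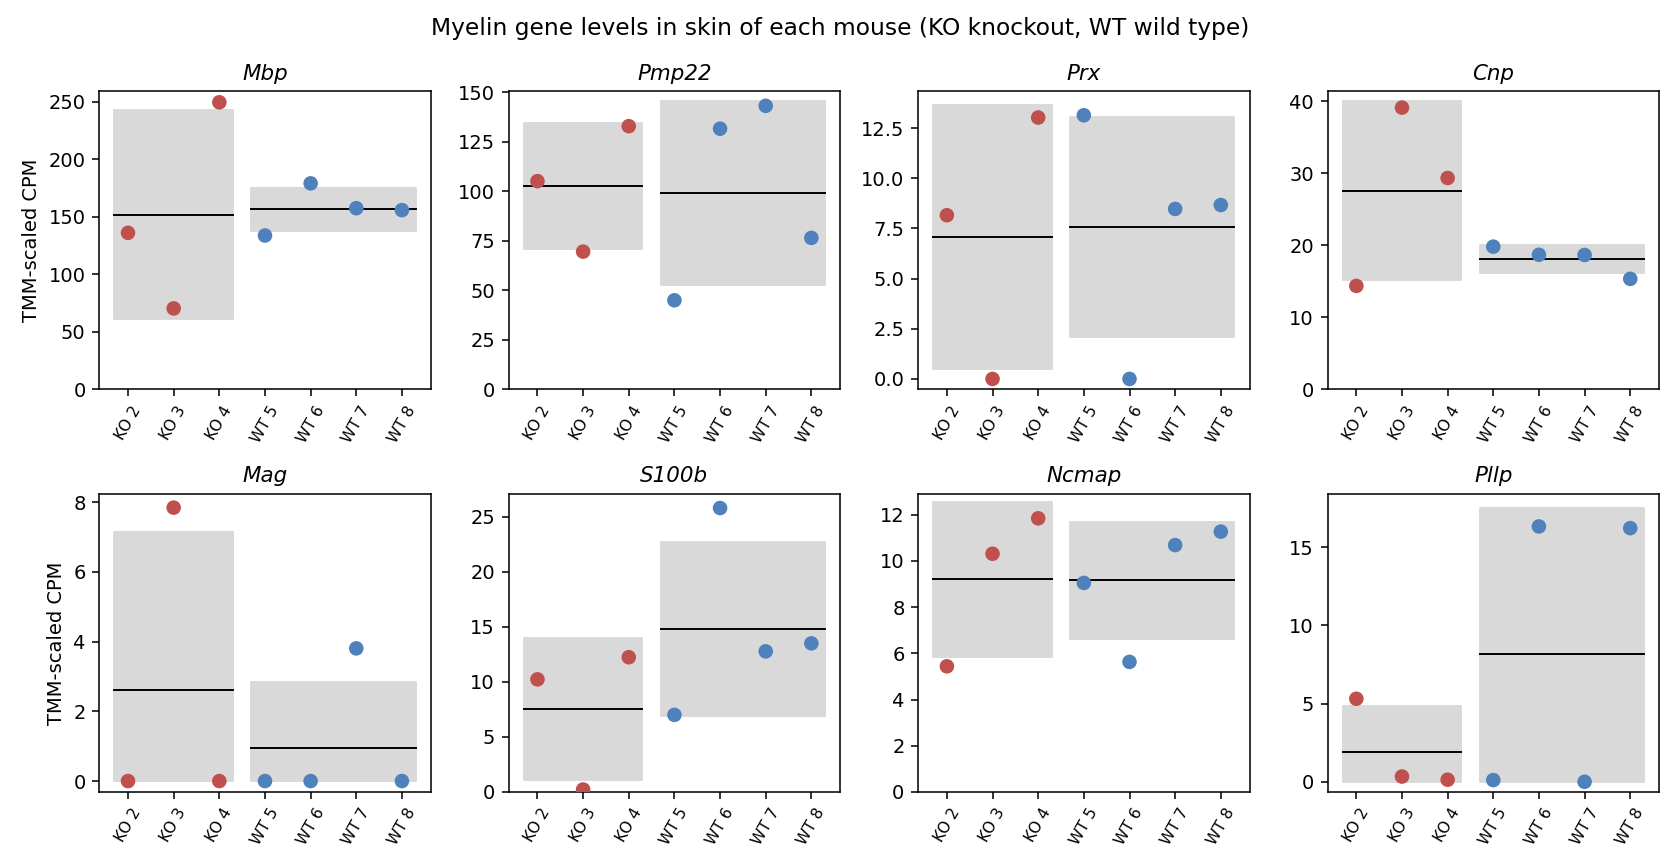
Level of each of the 8 myelin genes in TMM-scaled CPM (vertical axis, starting at or just below 0, on its own scale per gene) for each mouse (horizontal axis, KO knockout in red, WT wild type in blue). Lines are group means and grey bands 1 SD, cut at 0 (n = 3 and n = 4). Every gene overlaps between the groups, and Mbp spans 70.5 to 249.7 CPM in knockout but 134 to 179 CPM in wild-type mice.

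Pmp22 needs a caution that its gene structure shows. The gene has several transcription starts, and an upstream one is known as the start used in Schwann cells, while downstream starts serve fibroblasts and many other cells. All their transcripts end alike, so 3' tags cannot tell these sources apart. RefSeq's table for GRCm38.p6 lists 4 starts for Pmp22. The 250 bases before the most upstream and the most downstream are shown here, on the plus strand, because they differ in base content; capitals mark CG pairs.
Pmp22 upstream start, chr11:63128732-63128981: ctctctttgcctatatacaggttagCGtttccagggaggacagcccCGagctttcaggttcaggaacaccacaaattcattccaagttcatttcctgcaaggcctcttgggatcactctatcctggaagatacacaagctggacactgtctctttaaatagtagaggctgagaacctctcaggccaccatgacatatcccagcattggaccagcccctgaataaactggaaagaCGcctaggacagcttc
Pmp22 downstream start, chr11:63132553-63132802: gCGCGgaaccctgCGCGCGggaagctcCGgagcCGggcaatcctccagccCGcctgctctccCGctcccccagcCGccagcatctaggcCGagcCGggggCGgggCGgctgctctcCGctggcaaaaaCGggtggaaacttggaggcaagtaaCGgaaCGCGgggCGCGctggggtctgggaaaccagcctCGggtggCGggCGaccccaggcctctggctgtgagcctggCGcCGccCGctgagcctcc
The upstream window holds 3 CG pairs and the downstream one 27, beside a median of 6 over the 32851 windows of the table. Windows of Prx and S100b hold 2 CG pairs each and those of Mag 2 to 3, while Cnp has 13 and Pllp 12. Those of Ncmap hold 17 and 8, and the other Pmp22 starts have 14 each. Windows were taken for 7 of the 8 genes. Mbp was left out of this step, so nothing said here on CG pairs or cores covers it. The SOX core ACAAAG, searched on both strands in the 300 bases from 250 before to 50 after the start, lies in windows of Cnp and Mag and in 18.7% of all windows. The EGR core GNGTGGGNG lies in windows of Prx and Cnp and in 14.3% of all windows. These matches are letters in a window and no evidence of binding.

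Among the proteins of compact myelin, Mbp, which holds the inner faces of the membrane together, had the most counts of the 8 genes. It lies on the plus strand of chromosome 18 at 82493271 to 82603762 (mm39, as all gene positions below). Knockout levels of Mbp were 136, 70.5 and 249.7 CPM (mice 2, 3 and 4), while controls had 134, 179, 158 and 156 CPM (mice 5, 6, 7 and 8). Knockout mouse 3 lay below and knockout mouse 4 above all 4 wild-type mice, so the groups overlapped around almost the same mean. Means were 152 ± 90.7 CPM (SD, n = 3) and 157 ± 18.5 CPM (SD, n = 4). This is a log2 fold change of -0.04 (SE 0.35, 95% interval -0.80 to 0.71, edgeR adjusted p = 0.9997), or 0.575 to 1.64 times the wild-type level. The fit without knockout mouse 3 gave 0.30 and without knockout mouse 4 gave -0.61. Transcripts of the same gene that start further upstream, known as golli, are made by immune cells as well, and 3' tags do not separate them.

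Pmp22, a membrane protein of compact myelin whose extra copy causes a common inherited neuropathy in people, lies on chromosome 11 at 63019808 to 63050373. Knockout levels were 105, 69.6 and 133 CPM (mice 2, 3 and 4), while controls had 45.0, 132, 143 and 76.5 CPM (mice 5, 6, 7 and 8). Both the lowest and the highest value were in wild-type mice, and all 3 knockout values fell between them. Its log2 fold change was 0.05 (SE 0.39, 95% interval -0.80 to 0.90, edgeR adjusted p = 0.9997). Mbp and Pmp22 together took 70.8% to 85.2% of the summed CPM of the 8 genes in a library. A ratio of counts within a library needs no scaling, and Mbp over Pmp22 was 1.30, 1.01 and 1.88 in the knockout mice, inside the 1.10 to 2.97 of the controls except in knockout mouse 3. Fibroblasts, which also make Pmp22, had summed markers of 11306 to 30223 CPM in knockout and 10970 to 18759 CPM in wild-type skin, and their part in its level was not tested.

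Mag and Prx act at the inner and outer faces of the myelin sheath, and both were at 0 counts in some mice. Mag, an adhesion protein facing the axon (chromosome 7, minus strand, 30598601 to 30614298), had 70 counts in knockout mouse 3, 31 counts in wild-type mouse 7 and 0 counts in the other 5 libraries. These are 7.84 and 3.81 CPM. With 1 mouse of each group holding all 101 counts, Mag gave no comparison. Of the 13856 genes that reached 70 counts in some library, 8.26% were at 0 in 5 or more libraries.

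Prx encodes periaxin, which ties the outer Schwann cell membrane to the surrounding matrix, and lies on chromosome 7 at 27196813 to 27219639. Knockout levels were 8.15, 0 and 13.02 CPM (mice 2, 3 and 4), while controls had 13.1, 0, 8.47 and 8.66 CPM (mice 5, 6, 7 and 8). Apart from 1 mouse at 0 in each group, the other 5 lay between 8.15 and 13.1 CPM. The fit gave a log2 fold change of -0.10 (SE 2.09, 95% interval -4.61 to 4.41), an interval too wide to limit a change in either direction. Exons of Prx overlap Gm15541 on the other strand, which held 60 counts, and the sources used here do not say whether counting used strand.

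Cnp and Ncmap belong to the uncompacted parts of the sheath. Cnp, a cyclic nucleotide phosphodiesterase that keeps cytoplasmic channels open in myelin and is also made outside glia, lies on chromosome 11 at 100465730 to 100482555. Knockout levels were 14.4, 39.1 and 29.3 CPM (mice 2, 3 and 4), while controls had 19.8, 18.7, 18.7 and 15.3 CPM (mice 5, 6, 7 and 8). Knockout mice 3 and 4 lay above all wild-type mice and knockout mouse 2 below them. Its log2 fold change was the highest of the 7 tested members at 0.61 (SE 0.68, 95% interval -0.86 to 2.07, edgeR adjusted p = 0.9997), and permuting the mice exactly (two-sided, log2 levels) gave p = 0.257. The fit gave 0.27 without knockout mouse 3 and 0.91 without knockout mouse 2, the ends of the range with 1 mouse left out. Its exons overlap those of Dnajc7 on the other strand, which held 6008 counts beside the 1309 of Cnp, and without strand their reads cannot be told apart.

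Ncmap encodes a small membrane protein of noncompact peripheral myelin (chromosome 4, minus strand, 135096887 to 135125538). Knockout levels were 5.44, 10.3 and 11.8 CPM (mice 2, 3 and 4), while controls had 9.04, 5.63, 10.7 and 11.3 CPM (mice 5, 6, 7 and 8). All 7 mice held it within a 2.18-fold range, the narrowest of the 8 genes, and the group means of 9.19 ± 3.34 and 9.15 ± 2.53 CPM nearly coincided. Its fitted log2 change was 0.01 (SE 1.32, 95% interval -2.85 to 2.86).

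S100b, a calcium-binding protein used to stain Schwann cells, lies on chromosome 10 at 76089687 to 76096993. Knockout levels were 10.2, 0.224 and 12.2 CPM (mice 2, 3 and 4), while controls had 7.00, 25.8, 12.8 and 13.5 CPM (mice 5, 6, 7 and 8). Knockout mouse 3, with 2 counts, lay far below the rest, and wild-type mouse 6 was highest. In the fit S100b had a log2 fold change of -0.96 (SE 1.35, 95% interval -3.87 to 1.94, edgeR adjusted p = 0.9997). The change was -0.39 without knockout mouse 3, -1.50 without knockout mouse 4 and -2.12 with limma-voom. Fat cells and melanocytes also make S100b. Of 10 fat cell markers tested, 10 had a log2 fold change below 0 (median -1.45), 9 had an unadjusted p under 0.05 and 8 were without overlap at the lower side, beside 4.31% and 3.45% of all genes. The smallest edgeR adjusted p was 0.0934, so 0 were called. The list had summed levels of 3006 to 5441 CPM in knockout and 7976 to 13811 CPM in wild-type skin. Their part in the S100b values was not tested.

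Pllp encodes plasmolipin, a membrane-spanning lipid raft protein of myelin and of some epithelia (chromosome 8, minus strand, 95401522 to 95422906). Knockout libraries held 41, 3 and 1 of its tags (mice 2, 3 and 4), while controls had 1, 145, 0 and 131 counts (mice 5, 6, 7 and 8). The 3 libraries with more than 3 counts came from both groups, knockout mouse 2 with 5.31 CPM and controls 6 and 8 with 16.3 and 16.2 CPM. A fitted log2 fold change of -2.08 (SE 2.53, 95% interval -7.54 to 3.39) rested on those 3 libraries and moved to -5.04 without knockout mouse 2 and to -0.77 with limma-voom.

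**Figure D2:**
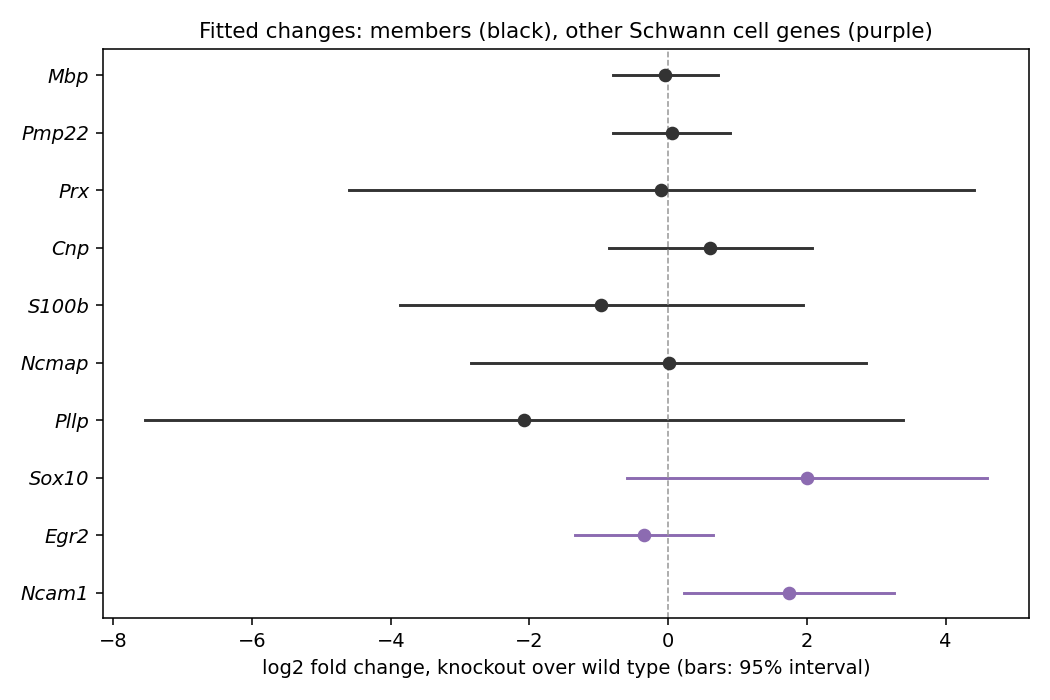
Fitted log2 fold change of knockout over wild-type skin (horizontal axis) with its 95% interval for the 7 tested myelin genes (black) and 3 other Schwann cell genes (purple), from edgeR's quasi-likelihood fit over 12888 genes. Intervals of all 7 myelin genes cross 0, from -0.80 to 0.71 for Mbp to -7.54 to 3.39 for Pllp. Among the purple genes, those of Sox10 and Egr2 also cross 0. Ncam1, named after its values were seen, has an interval of 0.23 to 3.26 and was not called (edgeR adjusted p = 0.9997).

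The 8 genes did not rise and fall together across mice. Knockout mouse 3 held the lowest Mbp and S100b and no Prx, yet the highest Cnp and Mag. Averaged over the 7 tested members, log2 CPM centred per gene was -1.40 in that mouse and -0.23 to 0.74 in the other 6. The value of knockout mouse 3 leaned most on Prx at -3.88 (0 counts) and S100b at -4.1 (2 counts). Mbp, Pmp22 and Pllp were at -1.475 to -0.43 there, and Cnp and Ncmap at 0.89 and 0.22. Outside the members, the tested genes nearest to this mean profile were Blnk, Xrn1, Il11ra1, Tfrc and Lmbrd1, of which Il11ra1 is uncertain because it has close copies. Their root-mean-square differences from it were 0.138 to 0.208 log2 units over 7 libraries, against a median of 1.15 over all tested genes. Being picked as the nearest, they lie below that median by construction. The tested members themselves were further from their mean profile, at 0.363 (Mbp) to 2.30 (Pllp). Among the members themselves, the spread over all 7 mice was 28.7% of the mean for Ncmap, 34.9% for Mbp and 185% for Mag.

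**Figure D3:**
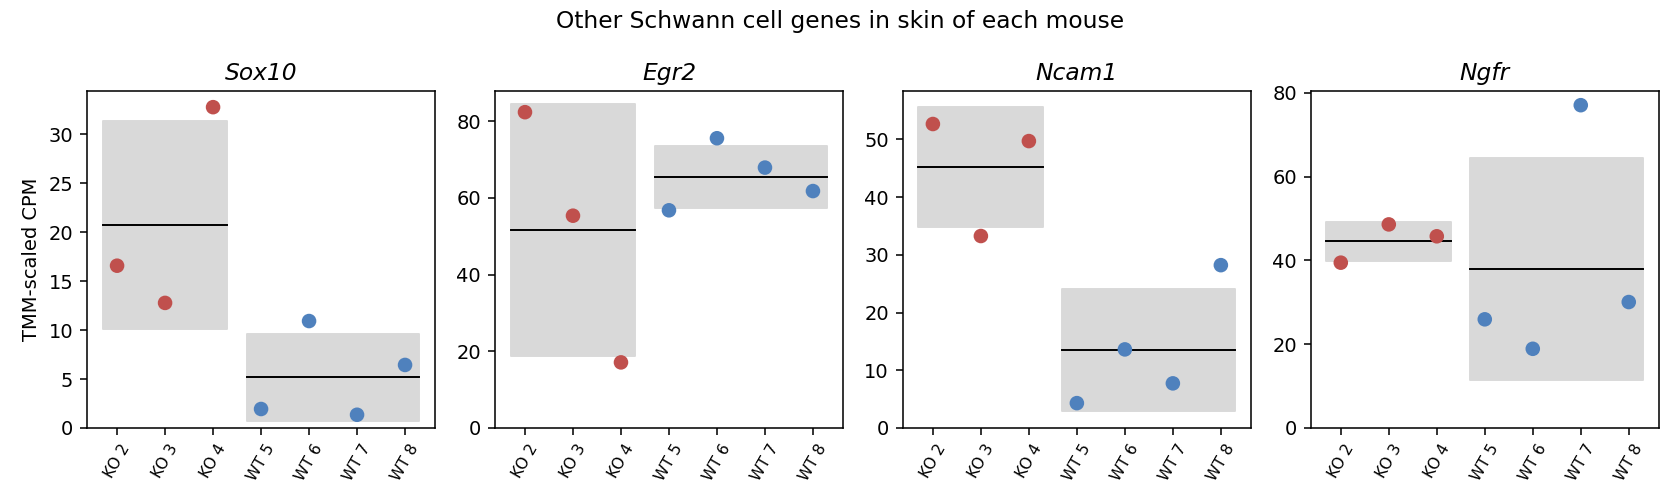
Levels of Sox10, Egr2, Ncam1 and Ngfr in TMM-scaled CPM (vertical axis, own scale per gene) for each mouse (KO knockout in red, WT wild type in blue), with group means and 1 SD bands (n = 3 and n = 4). Sox10 and Ncam1 do not overlap between the groups, at 12.8 to 32.8 against 1.35 to 10.9 CPM for Sox10, whereas Egr2 and Ngfr overlap. Ncam1 was named after its values were seen.

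Regulators of myelin genes were not called either, with 0 of 11 tested Schwann cell transcription factors higher and 0 lower. Over all genes tested, the share called was 0.0233%. Sox10, which Schwann cells and melanocytes need, reached 16.6, 12.8 and 32.8 CPM in knockouts (mice 2, 3 and 4), while controls had 1.94, 10.9, 1.35 and 6.44 CPM (mice 5, 6, 7 and 8). The groups did not overlap, as for 3.44% of all tested genes in the higher direction, and the log2 fold change was 2.00 (SE 1.20, edgeR adjusted p = 0.9997). Of 5 tested melanocyte markers, 5 had a log2 fold change above 0 and 0 were called. Their list summed to 211 to 409 CPM in knockout and 112 to 242 CPM in wild-type skin, with Tyr and Oca2 at 0 in every library. The part of melanocytes in the Sox10 values was not tested. Egr2, the driver of myelination and also an immediate early gene of many cells, averaged 51.6 ± 32.8 CPM in knockouts against 65.5 ± 8.10 CPM in controls. Of the most abundant of this list, Pou3f1 was at 219.6 ± 157 and 254 ± 122 CPM, Jun at 115 ± 36.8 and 196 ± 90.7 CPM and Tfap2a at 74.4 ± 32.0 and 81.1 ± 12.4 CPM, in knockout and wild-type skin respectively. Bulk skin does not tell which cells made Pou3f1, Jun and Tfap2a, so these levels do not show Schwann cells alone.

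Other genes of peripheral myelin and the Schwann cell surface gave 0 called of 12 tested, beside 0.0233% of all genes. Of the 12, 6 were above 0 and 6 below, with a median log2 fold change of -0.03. The most abundant were Itga6, Ank3 and Ndrg1, which keratinocytes make as well. Ank3 averaged 187 ± 84.2 CPM in knockouts against 173 ± 26.6 CPM in controls, and Itga6, a laminin receptor chain, was at 165 ± 40.7 and 231 ± 39.0 CPM. Ndrg1, a gene of an inherited demyelinating neuropathy, was at 148 ± 42.8 and 177 ± 45.7 CPM. Itga6 was without overlap at the lower side, as were 3.45% of all tested genes. Mpzl1 was without overlap at the higher side, as were 3.44%. Mpzl1, a widely made cell surface protein named after its values were seen, was at 20.5 ± 6.31 CPM in knockout skin and had 0 counts in 3 of the 4 control libraries.

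Among receptors and markers of nonmyelinating Schwann cells, 0 of 9 tested genes were called, beside 0.0233% of all genes. Of the 9, 4 were above 0 and 5 below. L1cam, an adhesion molecule of such cells, averaged 66.5 ± 30.5 CPM in knockouts against 66.6 ± 26.4 CPM in controls. Ngfr, the low-affinity neurotrophin receptor, was at 44.6 ± 4.68 and 38.0 ± 26.5 CPM, and Erbb2, a neuregulin co-receptor, at 32.9 ± 10.7 and 40.9 ± 31.3 CPM. Ncam1, named after its values were seen, reached 52.7, 33.3 and 49.7 CPM in knockouts (mice 2 to 4), while controls had 4.31, 13.6, 7.73 and 28.2 CPM (mice 5 to 8). These groups did not overlap, and the log2 fold change of 1.75 (SE 0.70) was not called (edgeR adjusted p = 0.9997).

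Myelin membranes are rich in cholesterol and galactosylceramide. Of 11 tested genes of their synthesis 0 were called, beside 0.0233% of all genes tested. Fa2h, which hydroxylates the fatty acids of myelin lipids and of sebaceous and epidermal lipids, averaged 485 ± 174 CPM in knockouts against 194 ± 70.4 CPM in controls, without overlap (log2 fold change 1.33, SE 0.32, edgeR adjusted p = 0.503). It was called by limma-voom (adjusted p = 0.0251) and without a filter on low counts (adjusted p = 0.000216), within 0.000216 to 1.00 over its alternatives. Elovl1 was at 259.6 ± 51.0 and 322 ± 98.7 CPM and Dhcr7 at 113 ± 50.4 and 129 ± 12.1 CPM. Ugt8a, the enzyme that makes galactosylceramide, had 0 counts in 4 of the 7 libraries.

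Genes of the axonal cytoskeleton were scarce in skin, which holds the axons of sensory neurons but not their cell bodies. Nefl, Nefh and Prph had 0 counts in all 7 libraries. Only 3 of 10 listed genes were tested, of which 0 were called, beside 0.0233% of all genes tested. Map1b averaged 94.3 ± 41.2 CPM in knockouts against 37.6 ± 16.1 CPM in controls (log2 fold change 1.32, SE 0.45, edgeR adjusted p = 0.965). Stmn2 was at 5.53 ± 0.647 and 9.03 ± 11.6 CPM, and Uchl1 at 6.55 ± 7.01 and 5.53 ± 3.83 CPM.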

How the data were processed

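The authors deposited a table of whole-number counts per gene and a second table of filtered and normalized log2 values. Per the submitters' processing notes, STAR, GATK 4.2.4.0, featureCounts, Subread 2.0.3, edgeR 3.36.0 and mm39 were used, with no roles stated. All 90678 deposited log2 values were recovered as edgeR log2 CPM with a prior count of 2 within 1e-06, and that table then served as an alternative gene set.

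Counts of all 7 libraries were fitted in edgeR 4.0.16 (R 4.3.3) with TMM factors, filterByExpr at a minimum of 10 counts and the quasi-likelihood test. Of 19128 genes with a count, 12888 were tested. The call rule was an adjusted p (Benjamini-Hochberg, over the whole table) below 0.05. Standard errors and 95% intervals came from the F statistic. Single levels were compared by exact permutation over 35 splits (smallest p = 0.0286) of log2 CPM. Alternatives used DESeq2 1.42.0 and limma 3.58.1. The procedure was also run on simulated data, and its rate of calls there is not reported here. A gene that was not called is not read as unchanged.

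Members and lists were chosen with earlier results of these data known. Named genes were the members, Tuft1, Sox10, Egr2, up to 4 called genes of each list or otherwise its 3 most abundant tested genes, and the 5 nearest profiles. Some genes under this rule are not reported here, and lists were counted without them. P-values set a difference against the spread between these mice. The permutation test used a gene's own values only. In the edgeR, DESeq2 and limma fits, a gene's spread was estimated with help from the other genes.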

Additional observations from a re-analysis of the deposited data

Results flagged for a closer look

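In 4 of 30 named genes given an outlier test, 1 of the 4 wild-type mice stood apart from the other 3 on the log2 CPM scale. The 30 leave out Ugt8a and the 5 nearest profiles, and those profiles were not given this test. Chance sets about 1 in 20 groups of normally distributed values apart, but that rate does not hold for libraries with this many zeros, and no excess is read from the 4. Prx was at -2.07, the value of 0 counts, in control mouse 6, while the others had 3.12 to 3.74. Tuft1 was at 5.80 in control mouse 7, and at 6.70 to 6.84 elsewhere. Uchl1 was at -2.07 in control mouse 5, and at 2.66 to 3.15 elsewhere. Mpzl1 was at 2.81 in control mouse 6 and at -2.07, or 0 counts, in each of the others. Its other 3 values are tied at 0 counts, so mouse 6 stands apart by construction, and the gene was named after its values were seen.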

How the results depend on the processing

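Across 89 values of the tested members under the alternatives, 0 were called and 77 kept their side of 0. The number of all genes called rose from 3 to 76 without a filter on low counts, 101 with the DESeq2 Wald test and 22 with limma-voom, and was 0 to 1 with 1 mouse left out, while 0 members were called in each. The cause was not tested. Log2 fold changes that changed sign with 1 mouse left out ran from -0.61 to 0.30 for Mbp, -0.19 to 0.28 for Pmp22, -0.90 to 0.48 for Prx and -0.22 to 0.27 for Ncmap, and Ncmap was at -0.0019 without mitochondrially encoded genes. The mice whose removal turned a sign were knockout mice 2, 3 and 4 and wild-type mice 5, 6 and 8. Leaving out knockout mouse 4 put the members' median at -0.41 and leaving out knockout mouse 3 put it at 0.26, the ends of its range. Without wild-type mouse 6 or 8, Pllp had too few counts to be tested. Mag was tested without a filter on low counts (log2 fold change 1.44, edgeR adjusted p = 0.9996), without knockout mouse 2 (2.02) and without knockout mouse 4 (2.02), and had a DESeq2 estimate of 1.47 with no adjusted p. No paired analysis was possible because the groups share no mouse numbers. At 0 to 229 counts in a library, Prx, Mag, S100b, Ncmap and Pllp allow no statement on moderate changes.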

Other observations

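Of 11 tested genes of inherited peripheral neuropathy that act outside myelin structure, 0 were called, beside 0.0233% of all genes tested. Their median log2 fold change was -0.16. No gene of the list was without overlap between the groups, beside 6.89% of all genes. With so few genes, these counts are no result about the list. Hspb8, a small heat shock protein mutated in motor neuropathy, averaged 834 ± 246 CPM in knockouts (SD, n = 3) against 1060 ± 259 CPM in controls (SD, n = 4). Lmna, the lamin A/C gene, was at 584 ± 25.8 and 706 ± 196 CPM, and Hspb1 at 260.6 ± 61.4 and 398 ± 150 CPM. Gdap1, a mitochondrial protein of nerve, had counts in wild-type mouse 8 and in no other library.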
